A study of Mus musculus with 40 samples.

Results

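Pioglitazone (Pio) was given to wild-type (WT) mice in a low-fat control diet, and the RNA of their livers was compared with that of WT mice on the same diet without the drug. This comparison holds 10 of the 40 mice of the series, 5 Pio and 5 control, which were chosen by the group and genotype written in their labels and not by any measured value. All 10 were male C57BL6/J mice that ate their diet from 2 to 5 months of age, and the question asked was which liver genes respond to Pio when dietary fat is low. For comparison, 5 WT mice on a high-fat diet (HFD) and 5 on HFD with Pio (HFD-Pio) were used, as were 5 control and 5 Pio mice in which a Cre gene driven by the albumin promoter removed loxP-flanked PPARγ from hepatocytes (KO). These mice too were male and ate their diets from 2 to 5 months of age. The WT mice were plain C57BL6/J, without Cre or loxP alleles. Whether other liver cells of the KO mice keep the receptor is not given in the sources used here. Values for single mice are given below in the order of mouse numbers, 831 to 835 for control and 841 to 845 for Pio.

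Pio is a thiazolidinedione and an agonist of PPARγ, a nuclear receptor that binds DNA as a pair with the retinoid X receptor (RXR). PPARγ is best known from adipocytes, where it turns on genes for the uptake, binding and storage of fatty acids, while the related receptor PPARα is the more abundant form in liver and drives fatty acid oxidation in peroxisomes and mitochondria. Lipid droplets are the storage organelles for triglyceride, and the proteins on their surface govern how large they grow and how readily they are broken down.

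The 5 control libraries held 17508630 to 37101491 counts and the 5 Pio libraries 22893246 to 37022387, and the groups were not separated by depth (exact permutation test, two-sided, p = 0.698). CPM values are counts scaled to a common library size after trimmed-mean normalization. Hepatocyte markers summed to 76485 to 124830 CPM in control and 80953 to 137230 in Pio mice (exact permutation p = 0.929), and no summed marker list of cholangiocytes, macrophages, endothelium, blood, muscle or pancreas passed the same test at 0.05. All 7 red blood cell markers had a log2 fold change below 0 (median -0.77), and 1 of them was called. Control mouse 832 stood apart: its markers of stellate cells and matrix summed to 827 CPM, against 236 to 290 in the other control mice and 256 to 452 in Pio mice. None of the 12 tested markers of that list was called by edgeR or DESeq2 (median -0.25, 1 higher at an unadjusted p under 0.05, 2 called by limma), and without mouse 832 edgeR called 2 higher (median 0.32). Mitochondrially encoded messenger RNAs took a larger share of the counts in Pio mice, with a median of 10.7% against 6.26% in control mice (exact permutation p = 0.0476). The share was 4.82% to 7.02% in control mice, 21.0% in Pio mouse 845 and 4.67% to 10.9% in the other Pio mice, and mouse 841 was the 1 Pio mouse that did not lie above all control mice.

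Of 12447 genes tested, 934 (7.5%) differed between Pio and control livers at an adjusted p of at most 0.05, 506 of them higher (4.07%) and 428 lower (3.44%). At an unadjusted p under 0.05 there were 2893 (23.2%). A change of at least 2-fold was found for 193 of the higher genes (1.55% of those tested) and for 93 of the lower ones (0.747%). All 5 Pio mice lay above all 5 control mice in 563 genes (4.52%) and below them in 386 (3.1%), called or not. Without control mouse 832 the test called 906 of 12367 genes (7.33%), and without Pio mouse 845 it called 474 of 12419 (3.82%). The median over all genes was -0.02 on the log2 scale, and 5941 of the 12447 genes lay above 0. Counts of called genes in the lists below stand against the shares of 4.07% higher and 3.44% lower over all genes. Below, a gene is said to rise or fall where edgeR's quasi-likelihood test called it after Benjamini-Hochberg adjustment. Its log2 fold change (Pio minus control) is given with the standard error of the fit. In whole liver, more RNA per cell and more cells that express a gene cannot be told apart.

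**Figure D1:**
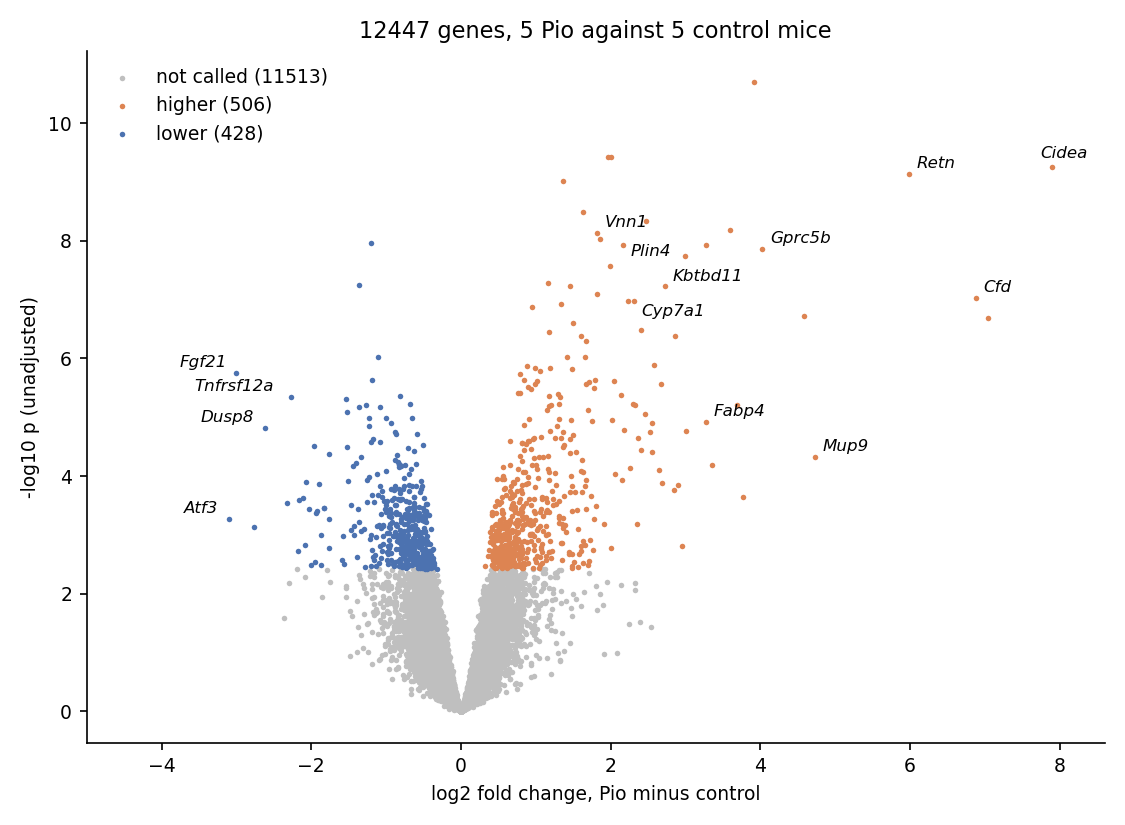
Log2 fold change of Pio against control (x axis) and -log10 of the unadjusted p value (y axis) for each of the 12447 genes tested in WT livers on control diet. Called genes are coloured by direction, 506 higher and 428 lower, and the labelled Cidea lies farthest to the right, at 7.89.

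The largest log2 fold change of all genes called was that of a lipid droplet gene. Cidea, which joins droplets so that they enlarge and is best known from brown fat, was at 0.482, 0.147, 0.815, 0.484 and 0.906 CPM in control mice and at 138, 46.7, 62.5, 174 and 248 CPM in Pio mice, with 7.89 ± 0.73 as log2 fold change (adjusted p = 1.75e-06). It had 77 reads over the 5 control libraries and 17216 over the 5 Pio libraries, a ratio of 230 after scaling to library size (95% interval 184 to 292, counting error only). Control livers thus held few reads of this gene, and the groups were far apart in every mouse. Cidec, the relative of Cidea that enlarges droplets in white fat and fatty liver (GRCm38 chr6:113424634-113435760, minus strand), was at 8.27, 43.8, 9.09, 6.51 and 7.63 CPM in control and 86.1, 98.4, 55.6, 84.7 and 117 CPM in Pio mice. The groups did not overlap, but control mouse 832 was well above the other control mice, and the log2 fold change of Cidec was 2.55 ± 0.45 (adjusted p = 0.00172) with it and 3.49 without it. Plin4, a coat protein of nascent droplets (chr17:56100591-56109803, minus strand), was at 16.5, 23.0, 15.7, 19.2 and 18.3 CPM in control and 91.0, 105, 51.7, 89.8 and 78.0 CPM in Pio mice, with no overlap (2.16 ± 0.24, adjusted p = 1.05e-05). Its locus overlaps Hdgfl2 on the other strand, and the library kit is not stated to keep strand.

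Fitm1, which partitions newly made triglyceride into droplets, was at 22, 5.34, 27.4, 22.8 and 44.2 CPM in control and 91.2, 67.7, 54.0, 73.7 and 52.2 CPM in Pio mice and rose by 1.48 ± 0.32 (adjusted p = 0.00879). Its relative Fitm2 rose by 0.62 (adjusted p = 0.0225), a call lost without control mouse 831 or 833 or Pio mouse 841 or 844, at 0.44 to 0.59. In all, 5 of the 15 tested droplet genes rose and none fell. Of these 5, Cidea reached the minimum level for testing only through mice given Pio, so the count is a description. Coat proteins that liver carries without treatment moved less: Plin2 had a log2 fold change of 0.17 (adjusted p = 0.693) and Plin5 one of -0.45 (adjusted p = 0.256). The median of the list was 0.17, against -0.02 over all genes. Leaving out control mouse 832 gave 5 higher and 1 lower.

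**Figure D2:**
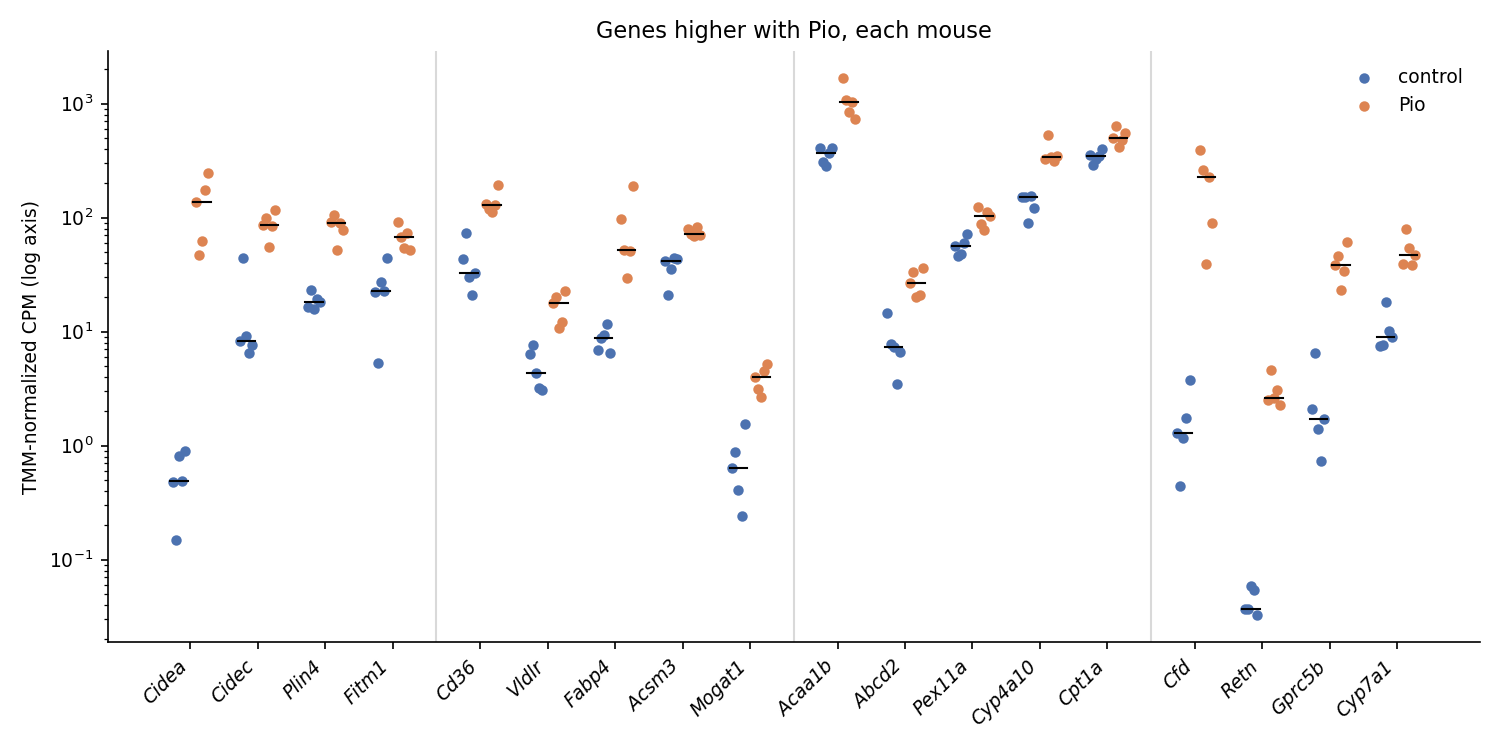
CPM of higher genes in each mouse (log scale on the y axis), with 5 control and 5 Pio mice per gene as points and the group median as a line. Control mouse 832 is the highest control point for Cidec, whose 5 control mice lie between 6.51 and 43.8 CPM, below all 5 Pio mice.

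Among 25 tested genes of fatty acid uptake, binding and activation, 8 rose (32%, against 4.07% of all genes), none fell and 22 had a log2 fold change above 0 (median 0.48). Cd36, the scavenger receptor that carries long-chain fatty acids across the cell surface, was at 43.4, 72.5, 29.9, 21.0 and 32.6 CPM in control and 132, 120, 112, 130 and 192 CPM in Pio mice (1.78 ± 0.28, adjusted p = 0.000707). Vldlr, which binds triglyceride-rich lipoproteins, was at 6.38, 7.62, 4.37, 3.20 and 3.10 CPM in control and 17.8, 20.1, 10.7, 12.2 and 22.5 CPM in Pio mice (1.75 ± 0.31, adjusted p = 0.00164). Neither gene overlapped between the groups. Fabp4, the adipocyte fatty acid carrier, was at 6.86, 8.80, 9.38, 11.6 and 6.47 CPM in control and spread widely in Pio mice, at 96.6, 52.5, 29.6, 51.4 and 189 CPM (3.28 ± 0.57, adjusted p = 0.00164). The lowest Pio mouse was still above the highest control mouse.

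The transporter Slc27a1 was at 7.34, 9.39, 6.75, 8.05 and 8.89 CPM in control and 20.7, 25.9, 14.5, 12.0 and 9.47 CPM in Pio mice, where mouse 845 was barely above the control mice (1.03 ± 0.22, adjusted p = 0.00734). Of the enzymes that attach coenzyme A to fatty acids, Acsm3 for medium chains rose by 1.01 ± 0.16 (adjusted p = 0.000599) and Acsl1, the main long-chain form of liver, by 0.72 ± 0.17 (adjusted p = 0.0142). Acsm3 was at 20.9 to 44.1 CPM in control and 69.5 to 83.0 in Pio mice, and Acsl1 at 398 to 917 and 1006 to 1200, again with no overlap. The other called genes of this list were Acbd5 (0.60), which binds acyl-CoA at the peroxisome, and the caveolar coat gene Cav1 (1.35). Acbd5 lost its call without control mouse 832 or 833 or Pio mouse 842, 844 or 845 (0.51 to 0.60), and Cav1 without control mouse 831, 833 or 834 or Pio mouse 841 or 844 (1.08 to 1.36). Lpl, the lipase of lipoprotein triglyceride, was not called at 1.71 ± 0.54 (adjusted p = 0.0552). It was at 12.1, 62.9, 15.0, 16.2 and 7.15 CPM in control and 63.6, 120, 77.0, 58.9 and 51.0 CPM in Pio mice, and without control mouse 832 it had 2.55 (adjusted p = 0.00441).

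For triglyceride synthesis, 3 of 18 tested genes rose and none fell, with a median of 0.02. Of these 3, Mogat1 reached the minimum level for testing only through mice given Pio, so this count too is a description. Mogat1, which adds a fatty acid to monoacylglycerol, was at 0.631, 0.884, 0.408, 0.242 and 1.55 CPM in control and 3.97, 3.14, 2.69, 4.51 and 5.17 CPM in Pio mice (2.36 ± 0.44, adjusted p = 0.00256). Gpd1, which makes the glycerol phosphate backbone, was at 281 to 526 CPM in control and 614 to 989 CPM in Pio mice (0.98 ± 0.19, adjusted p = 0.00426). Mogat1 and Gpd1 were higher in every Pio mouse than in any control mouse. Gpam, the first acyltransferase of the pathway, rose by 1.13 (adjusted p = 0.0245), but not without control mouse 831, 832 or 834 or Pio mouse 844 or 845 (0.98 to 1.11). None of 16 tested genes of lipolysis was called by edgeR or DESeq2, though 6 were higher at an unadjusted p under 0.05 and limma called 6. In de novo fatty acid synthesis 2 of 22 rose (9.09%, against 4.07% of all genes). Scd1, the desaturase that makes oleate, was at 17490, 11520, 32160, 22400 and 19410 CPM in control and 26500, 50190, 62070, 53250 and 121200 CPM in Pio mice, with overlap at mouse 841 (1.60 ± 0.45, adjusted p = 0.0343). The call of Scd1 was lost without any control mouse but 833 or any Pio mouse but 841, at 1.22 to 1.67. Fads2 (0.71), another desaturase, lost its call without control mouse 831, 834 or 835 or Pio mouse 842, 843 or 845, at 0.61 to 0.74.

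Of 20 genes chosen as secreted proteins and markers of adipocytes, 12 were expressed enough to test and 5 rose, with none lower and a median of 0.81. Of these 5, Cidea and Retn reached the minimum level for testing only through mice given Pio, as did Mogat1 above, so the count is a description. Cfd, the serine protease adipsin that fat secretes, was at 1.30, 0.442, 1.17, 1.75 and 3.75 CPM in control and 392, 263, 39.5, 225 and 90.2 CPM in Pio mice (6.88 ± 0.86, adjusted p = 5.16e-05). Its Pio values spread widely, yet the lowest was far above every control mouse. Car3, a carbonic anhydrase of fat and liver, was at 1042 to 1864 CPM in control and 2362 to 4403 CPM in Pio mice (1.14 ± 0.19, adjusted p = 0.00117). Retn, the adipocyte hormone resistin, had 1, 1, 1, 2 and 1 reads in control and 100, 131, 61, 78 and 42 reads in Pio mice, 6 against 412 in all, a ratio of 70.8 (95% interval 32.2 to 194). The remaining called members were Cidea and Fabp4, described above.

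Several defining genes of adipocytes were at or near 0 reads, but not all markers on the list were. Adipoq, which encodes adiponectin, had 4 reads over the 5 control libraries and 5 over the 5 Pio libraries. Lep had 0 and 1 reads, Plin1 had 1 and 3, and Slc36a2 had 0 in all. Adrb3, a catecholamine receptor of fat cells, was at 8.75 to 19.3 CPM in control and 5.80 to 22.9 CPM in Pio mice. The weakly detected Adig had 5 and 67 (ratio 13.8, interval 5.63 to 43.9). Adipocyte markers as a list summed to 9.37 to 20.4 CPM in control and 75.2 to 257 in Pio mice (exact permutation p = 0.00794, the smallest that 5 against 5 allows), and Cidea made up most of that rise. Retn, given above, was also on this list.

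Peroxisomal lipid oxidation, which shortens very long fatty acids, had 11 of 29 tested genes higher and 1 lower, with a median of 0.20. Without control mouse 832 the counts were 6 and 1, and without Pio mouse 845 they were 7 and 0. The thiolase Acaa1b, which cuts off acetyl-CoA at the last step, was at 404, 307, 281, 372 and 407 CPM in control and 1689, 1086, 851, 1030 and 727 CPM in Pio mice (1.60 ± 0.22, adjusted p = 0.000154). Abcd2, which imports fatty acyl-CoA into the peroxisome, was at 14.7, 7.73, 7.28, 3.47 and 6.57 CPM in control and 26.4, 33.5, 20.1, 20.9 and 35.9 CPM in Pio mice (1.79 ± 0.28, adjusted p = 0.000599). Neither gene overlapped between the groups. Acaa1b has a near copy in Acaa1a, and since the study counted reads of unique assignment, those that match both genes are lost from the counts.

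Ehhadh, the bifunctional enzyme of the pathway, was at 148 to 272 CPM in control and 318 to 490 CPM in Pio mice (0.90 ± 0.19, adjusted p = 0.00706). The thioesterase Acot3 rose by 2.26 ± 0.46 (adjusted p = 0.00566). Cat, the catalase that removes the hydrogen peroxide peroxisomes make, rose by 0.79 (adjusted p = 0.0364) but lost its call without control mouse 832, 834 or 835, HFD-Pio mouse 839 or Pio mouse 842 or 845, at 0.61 to 0.83. The 1 gene that fell, Nudt19 (-0.62, adjusted p = 0.0437), lost its call when any 1 of 13 of the 20 WT mice was left out, at -0.64 to -0.50. The thiolase Acaa1a rose with its call held in every such fit, while Abcd3, Crat, Decr2 and Hsd17b4 lost theirs when any 1 of 8, 16, 9 and 11 mice was left out. In peroxisome biogenesis 4 of 19 rose and none fell (2 without Pio mouse 845), and the calls of Pex11a and Pex19 held when any 1 WT mouse was left out. Pex11a, which divides peroxisomes and is a known PPARα target, was at 45.8 to 71.9 CPM in control and 77.2 to 123 CPM in Pio mice (0.84 ± 0.16, adjusted p = 0.00352).

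The Cyp4 enzymes start the omega oxidation of fatty acids. Of 15 tested members of this list 3 rose. Cyp4a10 was at 152, 150, 90.0, 155 and 122 CPM in control and 329, 530.5, 343, 313 and 349 CPM in Pio mice (1.48 ± 0.26, adjusted p = 0.0016). Its neighbour Cyp4a14 was not called, at 975, 513, 592, 565 and 354 CPM in control and 855, 1607, 826, 722 and 1183 CPM in Pio mice (0.79 ± 0.30, adjusted p = 0.111), and its groups overlapped. Cyp4a32 rose by 1.33 (adjusted p = 0.00256) and Aldh3a2, which oxidises fatty aldehydes, by 0.80 (adjusted p = 0.0098). The Cyp4a genes include near-identical copies, for which reads that match more than 1 gene were not counted, so their levels may be too low.

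In mitochondrial fatty acid oxidation 6 of 30 tested genes rose and none fell, with a median of 0.28, and 14 were higher at an unadjusted p under 0.05. Cpt1a, which commits fatty acids to entry into mitochondria, was at 353, 290, 328, 346 and 396 CPM in control and 495, 639, 418, 483 and 556 CPM in Pio mice (0.60 ± 0.13, adjusted p = 0.0109). Slc25a20, the carrier that takes acylcarnitine through the inner membrane, was at 42.7 to 68.3 CPM in control and 79.3 to 108 CPM in Pio mice (0.66 ± 0.14, adjusted p = 0.00879). Acadm, the medium-chain dehydrogenase, was at 114 to 167 CPM in control and 171 to 234 CPM in Pio mice (0.57 ± 0.12, adjusted p = 0.0095). Each of these lay higher in every Pio mouse than in any control mouse. The other 3 were Acad10 (0.70), Acad12 (0.98) and Eci1 (0.78), and all 6 calls held when any 1 WT mouse was left out. With only the 10 mice of the comparison in the fit, Cpt1a, Acadm, Acad10 and Acad12 lost their calls. With all 40 mice in the fit, Slc25a20 and Acadm lost theirs, and Eci1 kept its call under every alternative.

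Other mitochondrial genes were mostly not called. Among nuclear genes of the respiratory chain, edgeR called 0 of 36 for complex I, 0 of 8 for complex II, 0 of 11 for complex III, 1 of 18 for complex IV and 2 of 17 for complex V, with medians of 0.09, 0.08, 0.22, 0.06 and 0.14. At an unadjusted p under 0.05, 5 genes of complex I, 1 of complex II and 1 of complex III were higher and none lower. DESeq2 called 1, 0 and 1 in these 3 complexes, and limma 3, 0 and 2. Cox7a2l, an assembly factor of respiratory supercomplexes, was at 16.1 to 25.7 CPM in control and 33.9 to 40 CPM in Pio mice (0.66 ± 0.15, adjusted p = 0.0117). The complex V genes Atp5c1 (0.64) and Atp5k (1.22) lost their calls without control mouse 832 and without other mice, 10 and 6 in all, at 0.50 to 0.67 and 1.03 to 1.23. None of 73 genes of the mitochondrial ribosome was called by edgeR, with 4 higher and 3 lower at an unadjusted p under 0.05, 1 called by DESeq2 and 12 by limma.

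In pyruvate entry and the tricarboxylic acid cycle 6 of 27 rose and none fell, with a median of 0.35. Leaving out control mouse 832 left 4 higher and 1 lower, and leaving out Pio mouse 845 left 2 higher. Pcx, which makes oxaloacetate from pyruvate, was at 564 to 754 CPM in control and 825 to 1137 CPM in Pio mice (0.62 ± 0.15, adjusted p = 0.0189) and kept its call without any 1 mouse. Subunits of the pyruvate and oxoglutarate dehydrogenases made up most of the rest, with Pdha1 at 0.69, Dld at 0.64, Dlst at 0.52 and Pdhx at 0.51. Calls were lost for Pdha1 without control mouse 831, 832 or 833 or Pio mouse 841, 844 or 845, for Dld without control mouse 831 or Pio mouse 845, for Dlst without control mouse 831 or Pio mouse 842 and for Pdhx without Pio mouse 843, 844 or 845, with values from 0.44 to 0.70. The succinyl-CoA ligase gene Sucla2 (0.42) lost its call when any 1 of 11 mice was left out, at 0.37 to 0.43.

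Of 7 messages encoded by mitochondrial DNA that were tested, 3 rose with a median of 1.20, and without Pio mouse 845 1 rose with a median of 0.71. That one was mt-Nd5, a subunit of complex I, at 6743, 4410, 7174, 5760 and 4541 CPM in control and 5006, 16260, 13800, 12720 and 42110 CPM in Pio mice, where mouse 841 was within the control range (1.65 ± 0.36, adjusted p = 0.00879; without mouse 845 it was 1.06, adjusted p = 0.0285). For mt-Nd2 the values were 1.63 (adjusted p = 0.044) with and 0.88 (adjusted p = 0.24) without that mouse, and for mt-Nd6, which overlaps mt-Nd5 on the other strand, they were 1.91 (adjusted p = 0.0198) and 1.17 (adjusted p = 0.0974). The call of mt-Nd2 was lost when any 1 of 16 mice was left out. The share of all counts taken by mitochondrial messages was highest in the same mouse, and its part in these results was not tested.

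Cyp7a1, the rate-limiting enzyme of bile acid synthesis (chr4:6265612-6275633, minus strand), was at 7.49, 7.58, 18.1, 10.2 and 8.99 CPM in control and 39.1, 80.0, 54.3, 38.3 and 47.0 CPM in Pio mice (2.31 ± 0.29, adjusted p = 5.27e-05). All 5 Pio mice were well above the highest control mouse. In all, 4 of 25 tested genes of bile acid synthesis and transport rose, none fell and the median was 0.07. The other 3 were transporters: Abcc3, an export pump of the sinusoidal membrane, rose by 0.75 ± 0.19 (adjusted p = 0.0181), the uptake carrier Slco1b2 by 0.82, and the export pump Abcc4 by 1.45. Abcc4 lost its call without any control mouse but 832 or without Pio mouse 842 or 845, at 1.05 to 1.36.

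Genes of cholesterol synthesis had a median of 0.68 over 26 tested genes, with 4 called higher and none lower, and with 2 called higher without control mouse 832 and likewise without Pio mouse 845. At an unadjusted p under 0.05 there were 18 higher and none lower, and DESeq2 called 13 and limma 16. Hmgcs1, which makes the precursor of mevalonate, was at 142, 115, 307, 171 and 190 CPM in control and 566, 305, 485, 439 and 380 CPM in Pio mice (1.23 ± 0.28, adjusted p = 0.0117). The groups met at control mouse 833 and Pio mouse 842, and the exact permutation p was 0.0159. Idi1 (1.13) and Sc5d (0.68), enzymes of later steps, were less firm. Idi1 lost its call when any 1 of 8 mice was left out (0.99 to 1.22) and Sc5d when any 1 of 11 was (0.55 to 0.70). Among 31 cytochromes P450 and receptors of drug metabolism 4 rose, of which Cyp2c39 held without any 1 mouse, at 0.847 to 1.85 CPM in control and 2.13 to 4.95 CPM in Pio mice (1.52 ± 0.34, adjusted p = 0.0101). Cyp2a5 (1.00), Cyp2a12 (0.50) and the reductase Por (0.83) lost their calls when any 1 of 14, 7 and 12 mice was left out, at 0.91 to 1.06, 0.40 to 0.52 and 0.71 to 0.90.

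**Figure D3:**
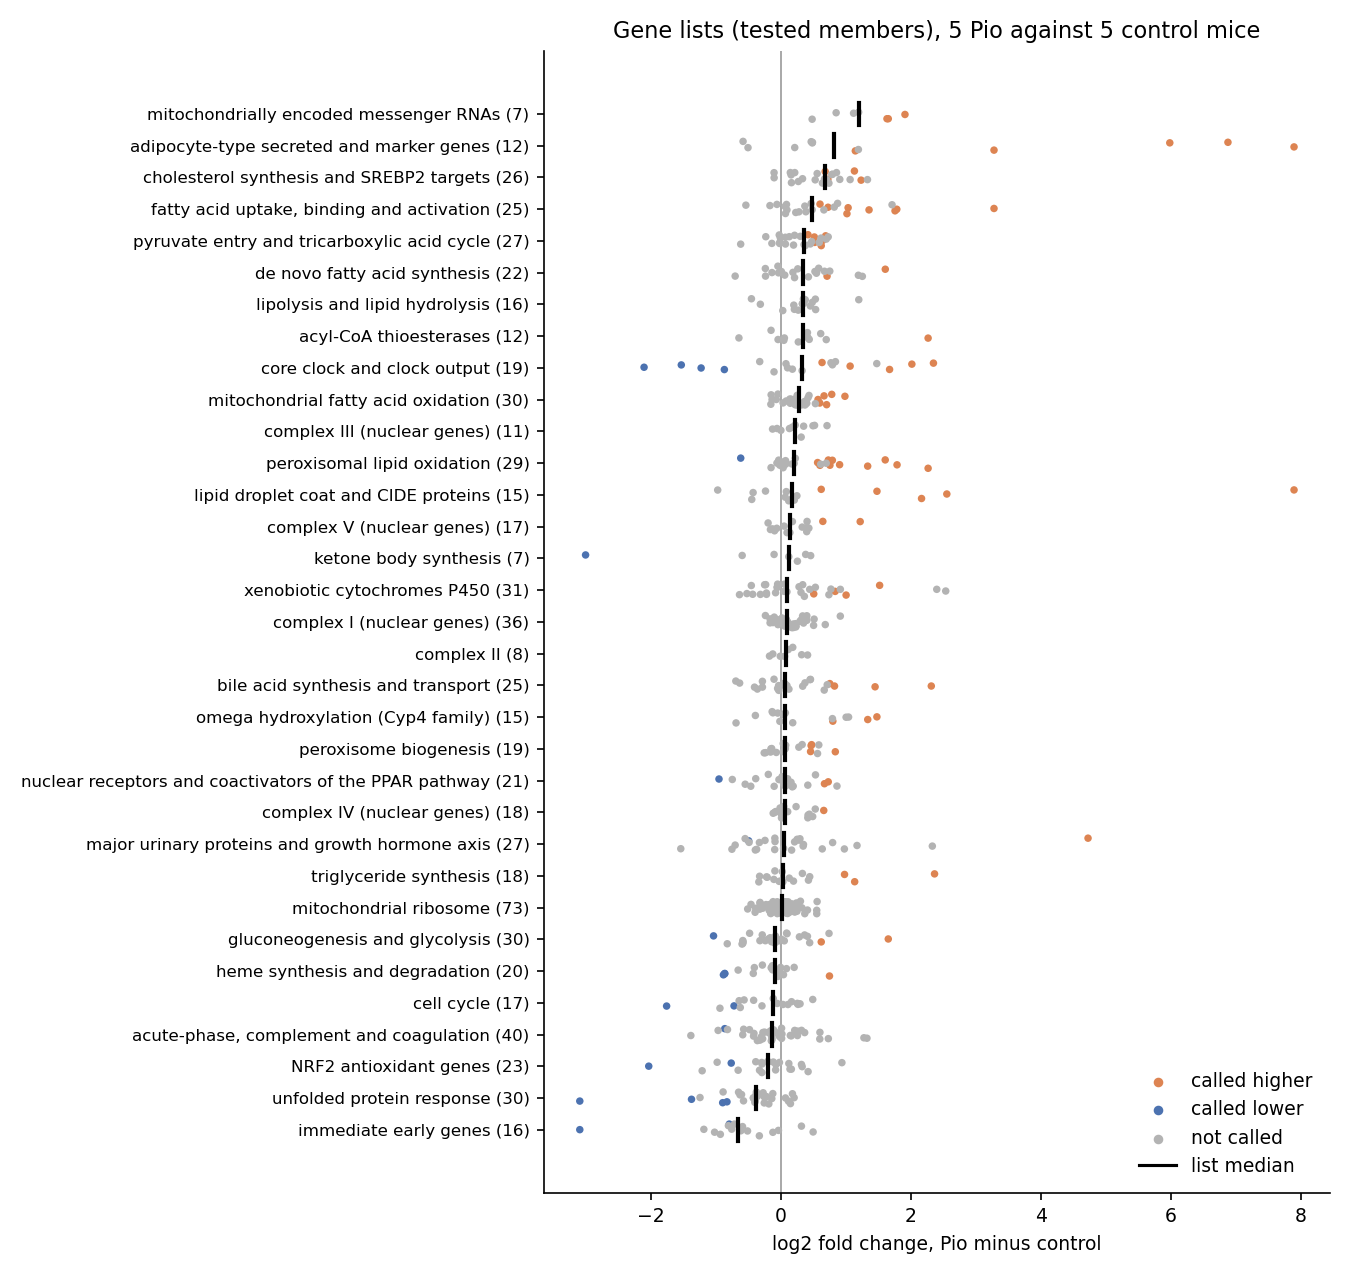
Log2 fold change of Pio against control (x axis) for the tested genes of each list (y axis, lists ordered by their median, number tested in brackets), with a point per gene coloured by its call and a black bar at the list median. The median is 0.48 for fatty acid uptake, binding and activation and -0.38 for the unfolded protein response, and Cidea stands apart at 7.89.

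Several of the largest rises belonged to no lipid list. Gprc5b, an orphan receptor of the cell surface, was at 2.12, 6.44, 1.4, 0.727 and 1.71 CPM in control and 38.6, 46.1, 23.4, 33.8 and 60.5 CPM in Pio mice (4.03 ± 0.45, adjusted p = 1.16e-05); it overlaps Iqck on the other strand. Kbtbd11 was at 1.33, 3.79, 1.17, 1.13 and 1.46 CPM in control and 17.7, 10.5, 9.00, 10.1 and 11.8 CPM in Pio mice (2.73 ± 0.34, adjusted p = 3.54e-05). Osbpl3, an oxysterol-binding protein, was at 1.41, 12.0, 2.04, 1.05 and 2.26 CPM in control and 24.3, 24.4, 13.9, 18.3 and 29.4 CPM in Pio mice (2.55 ± 0.49, adjusted p = 0.0037). In each of these 3 genes control mouse 832 was the highest control mouse, still below every Pio mouse, and Osbpl3 had 3.72 without it. Vnn1, the pantetheinase of liver and a PPARα target, was at 20.9 to 42.2 CPM in control and 82.7 to 139 CPM in Pio mice (1.82 ± 0.20, adjusted p = 9.27e-06).

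Hamp2, a hepcidin gene of the mouse, was at 7.64 to 51.2 CPM in control and 86.0 to 273 CPM in Pio mice (2.90 ± 0.62, adjusted p = 0.00857). The major urinary protein genes Mup9 (4.72 ± 0.92, adjusted p = 0.00421) and Mup18 (2.95, adjusted p = 0.0307) were also among the 10 largest rises of called genes that averaged at least 5 CPM. Mup9 was at 1.89, 0.663, 1.80, 2.61 and 25.6 CPM in control and 194, 72.5, 192, 254 and 160 CPM in Pio mice. Control mouse 835 was well above the other control mice, and Mup18 lost its call without any control mouse but 835 or without Pio mouse 843 or 844, at 2.67 to 2.89. Members of this family are near-identical and reads that match several of them were not counted, so levels rest on the few stretches in which the copies differ. Of 27 tested genes of the Mup and growth hormone list 1 rose and 1 fell (3.7% each), near the 4.07% and 3.44% of all genes. The gene that fell was the signal transducer Stat5b (-0.50), and Mup18 was not on that list. The counts were 1 and 3 without control mouse 832, and without Pio mouse 845 they were 1 and 0. Stat5b lost its call when any 1 of 6 mice was left out, at -0.51 to -0.43.

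Among called genes that averaged at least 5 CPM over the 10 mice, the 10 largest falls were those of Atf3, Fgf21, Dusp8, Tnfrsf12a, Arhgef2, Psat1, Npas2, Relb, Gstm3 and Dhrs9, and in all 10 control mouse 832 was the highest of the 10 mice. Fgf21, a hormone that liver secretes in fasting and under amino acid or endoplasmic reticulum stress (chr7:45613886-45615490, minus strand), was at 26.8, 35.9, 12.1, 7.29 and 9.90 CPM in control and 4.17, 1.59, 2.00, 2.06 and 1.36 CPM in Pio mice (-3.01 ± 0.46, adjusted p = 0.000491). The highest Pio mouse was below the lowest control mouse. Without control mouse 832 the value of Fgf21 was -2.62 (adjusted p = 0.00114). Tnfrsf12a, the receptor of the cytokine TWEAK, was at 14.7, 50, 18.3, 9.71 and 8.80 CPM in control and 6.38, 2.93, 3.75, 4.75 and 3.10 CPM in Pio mice (-2.27 ± 0.37, adjusted p = 0.000853, and -1.61 without mouse 832). Dusp8, a phosphatase of stress kinases, was at 10.4, 50.4, 23.1, 7.18 and 3.98 CPM in control and 2.94, 3.46, 3.11, 3.21 and 2.61 CPM in Pio mice (-2.62 ± 0.47, adjusted p = 0.00197, and -1.85 without mouse 832). In each, the control mice spread far more than the Pio mice, with mouse 832 highest.

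The stress transcription factor Atf3 rested on that library. It was at 3.97, 63.3, 9.20, 2.04 and 1.49 CPM in control and 2.44, 1.02, 1.96, 1.58 and 2.34 CPM in Pio mice, with overlap (-3.10 ± 0.76, adjusted p = 0.0177), and without control mouse 832 it was not called (-1.14, adjusted p = 0.114). Arhgef2 went from -2.18 to -0.41 (adjusted p = 0.352) without that mouse, and Gdf15, a stress hormone, from -1.77 to -1.20 (adjusted p = 0.0545). Arhgef2 also lost its call without HFD-Pio mouse 839 or any Pio mouse but 841 (-2.24 at the lowest), and Gdf15 without Pio mouse 845 (-1.69). Calls that held without mouse 832 were those of Ddit3, which encodes CHOP (-1.38 with and -0.74 without mouse 832), the serine synthesis enzyme Psat1 (-2.17 and -1.27), the NF-κB subunit Relb (-2.07 and -1.35) and the retinol dehydrogenase Dhrs9 (-1.92 and -0.96). With only the 10 mice of the comparison in the fit, Ddit3, Psat1, Relb and Dhrs9 were not called. Ddit3 was at 14.7, 46.8, 13.7, 9.69 and 11.2 CPM in control and 7.21, 9.56, 6.52, 7.08 and 6.59 CPM in Pio mice, with a narrow gap between the groups, and its locus overlaps other annotated genes.

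Of 30 tested genes of the unfolded protein response 4 fell, none rose and the median was -0.38. These were Atf3, Ddit3, Ppp1r15a (-0.90), which restores translation after stress, and the sestrin gene Sesn2 (-0.83). Chaperones of the endoplasmic reticulum were not among them. At an unadjusted p under 0.05 there were 12 lower and none higher. Without control mouse 832, and likewise without Pio mouse 845, 4 genes were called lower. Among 16 immediate early genes, which respond fast to growth signals and to handling, Atf3 and Jund (-0.80) fell with a median of -0.67, but neither did without control mouse 832, where the median was -0.38. Jund lost its call when any 1 of 7 mice was left out, at -0.81 to -0.64. The cell cycle inhibitor Cdkn1a was at 53.5, 182, 91.9, 98.8 and 38.1 CPM in control and 18.6, 25.9, 32.0, 29.8 and 30.9 CPM in Pio mice (-1.76 ± 0.34, adjusted p = 0.00391, and -1.37 without mouse 832). Of 23 NRF2 antioxidant genes 2 fell: the glutathione transferase Gstm3, at 111, 610.5, 207, 125 and 72.9 CPM in control and 25, 60.5, 63.4, 32.7 and 93.6 CPM in Pio mice with overlap (-2.04 ± 0.48, adjusted p = 0.0145, and -1.24 without mouse 832), and the epoxide hydrolase Ephx1 (-0.77), which lost its call without control mouse 831 or Pio mouse 843 (-0.73 and -0.64).

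Promoter sequences of 3 lower genes are shown for a motif that the factors of the amino acid and stress response bind, the C/EBP-ATF element, searched as TGATGNAA on both strands from 250 bases before to 50 after the RefSeq gene start (GRCm38). Each line is a window of the strand of the gene, read 5′ to 3′, with the match in capitals. That strand is the minus strand of the genome for Fgf21 and Atf3 and the plus strand for Pck2. The motif was chosen after the values of these genes had been seen.
Fgf21, chr7:45615614-45615637: cccccccaTTGCATCAtccgtcca
Atf3, chr1:191183428-191183451: tctcgcacTTGCATCAccaagtcc
Pck2, chr14:55540155-55540178: cttcaaagTTACATCAgtatctta
The match lies 139 bases before the start of Fgf21, 110 before that of Atf3 and 103 before that of Pck2. Pck2, the mitochondrial carboxykinase, fell by 1.04 on the log2 scale, a call lost without Pio mouse 842 or 845 (-0.99 and -0.95). Of all 9504 tested genes with a promoter window 2.78% held the motif, of 336 lower genes 4.17% and of 71 that fell at least 2-fold 9.86%. It stood in 2.49% of 362 higher genes and in 4.1% of the 122 that rose at least 2-fold. Of genes called lower at least 2-fold without control mouse 832 only 2 of 58 held it (3.45%), against 3.03% of those called higher at least 2-fold. Without Pio mouse 845 these were 3 of 49 (6.12%) and 3.09%. A match in a window is a description of its letters and not evidence of binding.

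A pair of plasma scavengers that hepatocytes secrete also fell. Hpx, the scavenger of free heme, was at 4247, 5140, 5412, 4010 and 4877 CPM in control and 3109, 3071, 2286, 2533 and 1818 CPM in Pio mice, with no overlap (-0.89 ± 0.19, adjusted p = 0.00879). The hemoglobin scavenger Hp fell by 0.87 (adjusted p = 0.0159), but without Pio mouse 845 it had -0.76 (adjusted p = 0.0502). Hpx and Hp both lost their calls in the fit of all 40 mice, with and without KO Pio mouse 13. Hp also lost its call with only the 10 mice of the comparison in the fit. Of 40 tested genes of acute-phase, complement and coagulation proteins edgeR called Hp alone, with a median of -0.14, while 7 were lower and 2 higher at an unadjusted p under 0.05, and DESeq2 called 5 and limma 14. Leaving out control mouse 832, edgeR called 2 lower. Among 20 genes of heme metabolism, Cpox, which makes a heme precursor in mitochondria, rose from 58.6 to 90.1 CPM in control to 112 to 139 CPM in Pio mice (0.75 ± 0.16, adjusted p = 0.00741), while Alas2 (-0.87, adjusted p = 0.0135), the enzyme of red cell precursors, fell with Hpx and Hp. Alas2 is also a red blood cell marker. The 4 hemoglobin genes of that list had -0.93 to -0.39 and were not called, and without control mouse 832 Hbb-bt was called as well (-1.03, adjusted p = 0.0461). The summed list was at 302 to 1984 CPM in control and 403 to 1016 CPM in Pio mice (exact permutation p = 0.31), and its part in these results was not tested. Itih3 (-0.48), Ces1c (-0.56) and Actb (-0.59) were the other 3 of the 5 lower genes with the highest mean CPM, and were less firm. Itih3 lost its call when any 1 of 6 mice was left out (-0.49 to -0.43), Ces1c when any 1 of 12 was (-0.60 to -0.48), and Actb without control mouse 833 or Pio mouse 845 (-0.51 to -0.49).

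In gluconeogenesis and glycolysis 2 of 30 tested genes rose (6.67%) and 1 fell (3.33%), with a median of -0.09. These shares lay near the 4.07% and 3.44% of all genes. Pcx and Pck2 are given above, and the hexokinase gene Hk2 (1.65, adjusted p = 0.0296) lost its call without any control mouse but 832 or without Pio mouse 842 or 845, at 1.45 to 1.65. Of 17 tested cell cycle genes 2 fell, Cdkn1a and the ribonucleotide reductase gene Rrm2 (-0.72), whose call was lost when any 1 of 6 mice was left out, at -0.72 to -0.64. Among 7 genes of ketone body synthesis and its signals, edgeR called Fgf21 alone, as lower, while DESeq2 and limma called 2 each.

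Clock genes moved in both directions. Of 19 tested, 5 rose and 4 fell, against 4.07% and 3.44% of all genes. The repressor Ciart was at 1.74, 2.14, 3.73, 1.51 and 5.53 CPM in control and 9.49, 16.7, 11.0, 9.62 and 12.1 CPM in Pio mice (2.01 ± 0.35, adjusted p = 0.0016). Per3, a period gene, was at 8.05, 4.60, 12.2, 6.89 and 22.5 CPM in control and 36.3, 32.8, 30.7, 34.2 and 38.7 CPM in Pio mice (1.67 ± 0.39, adjusted p = 0.0145). Dbp, a clock output factor, was at 5.01, 2.39, 3.96, 5.81 and 19.8 CPM in control and 46.6, 35, 32.3, 37.6 and 38.1 CPM in Pio mice (2.35 ± 0.59, adjusted p = 0.0198), a call lost without control mouse 831 or 834 (2.23 and 2.27). Control mouse 835 was the control nearest to the Pio mice in all 3, and the Pio mice lay close together. Nr1d2 (0.63), a repressor, lost its call without control mouse 831 or 833 or Pio mouse 844 or 845 (0.55 to 0.59), and Hlf (1.06), a relative of Dbp, without control mouse 833 or 834 or Pio mouse 842 or 845 (0.80 to 1.08).

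The activator Arntl, which encodes BMAL1, was at 16.9, 25.9, 23.8, 21.2 and 13.3 CPM in control and 6.58, 6.67, 9.89, 11.6 and 8.44 CPM in Pio mice (-1.23 ± 0.21, adjusted p = 0.00153). The repressor Cry1 was at 13.2, 12.8, 8.68, 10.9 and 6.60 CPM in control and 4.92, 2.75, 3.03, 4.87 and 2.34 CPM in Pio mice (-1.53 ± 0.25, adjusted p = 0.000898). Nfil3, which binds the same DNA element as Dbp, was at 25.4 to 32.1 CPM in control and 11.0 to 22.1 CPM in Pio mice (-0.87 ± 0.16, adjusted p = 0.00233). None of these 3 overlapped. Npas2, the partner of BMAL1, was at 6.68, 17.9, 9.32, 8.96 and 1.68 CPM in control and 1.48, 1.73, 3.15, 2.26 and 1.74 CPM in Pio mice, with overlap at control mouse 835 (-2.11 ± 0.48, adjusted p = 0.0117). Control mouse 835 was the control nearest to the Pio mice in Arntl, Cry1 and Npas2 too, though not in Nfil3. The genes that rose and those that fell are known to peak at different times of day. The hour at which livers were collected is not given in the sources used here, and its part in these results was not tested.

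**Figure D4:**
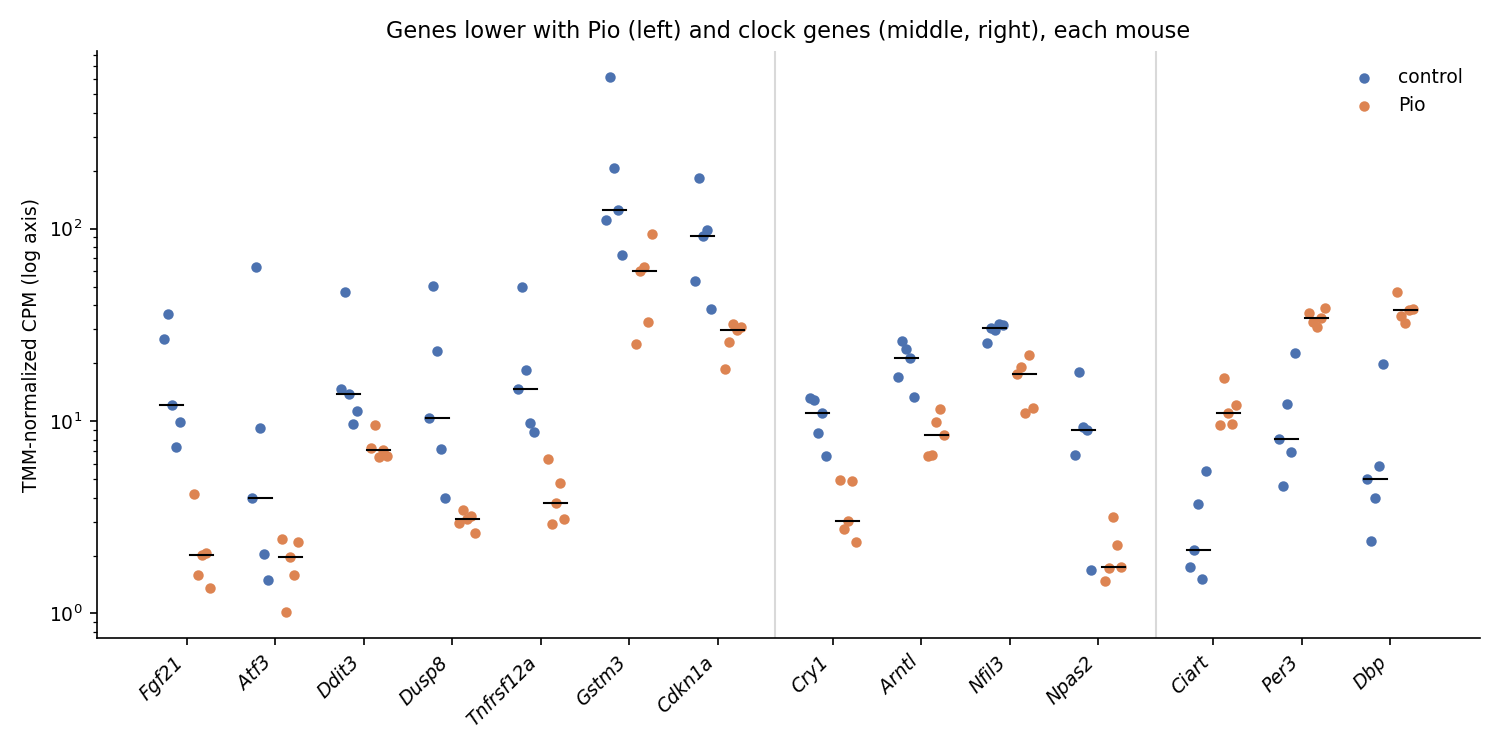
CPM of lower genes and of clock genes in each mouse (log scale on the y axis), with 5 control and 5 Pio mice per gene as points and the group median as a line. Control mice spread widely for Fgf21 (7.29 to 35.9) and Atf3 (1.49 to 63.3), and for Dbp the Pio mice lie between 32.3 and 46.6.

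A pair of sites in the Per3 promoter is shown, since the D-box that Dbp, Hlf and Nfil3 bind occurred there more than once. The D-box was searched as TTATGNAA on both strands, and a match of this motif and of the C/EBP-ATF element can share letters. It too was chosen after the values had been seen. The lines are windows of the strand of the gene, here the minus strand of the genome, with the match in capitals.
Per3 site 158 bases before the start, chr4:151044808-151044831: gcccgcggTTATGTAAcccccgcc
Per3 site 205 bases before the start, chr4:151044855-151044878: cccgcgcgTTATGTAAggtactcg
Of all tested genes with a window 2.74% held a D-box, of higher genes 20 of 362 (5.52%), of those higher at least 2-fold 13 of 122 (10.7%) and of lower genes 10 of 336 (2.98%). Of genes called higher at least 2-fold without control mouse 832 the share was 6.82%, and without Pio mouse 845 it was 11.3%. The E-box CACGTG, which BMAL1 and its partners bind and whose letters read alike on both strands, stood in 11.7% of all windows, in 12.2% of those of higher and 11.0% of those of lower genes. Of the 71 genes that fell at least 2-fold 14 held it (19.7%), against 15.5% without control mouse 832 and 14.3% without Pio mouse 845. The element to which PPAR and RXR pairs bind is the half-site AGGTCA repeated after 1 base. In this exact form it stood in 3 of all 9504 windows and in 0 of the 362 higher and 0 of the 336 lower genes, and with any base at the fourth position of each half-site in 33, 1 and 1. These windows do not reach the introns and distal sites where such elements often lie.

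Of 21 nuclear receptors and coactivators of the PPAR pathway 2 rose and 1 fell. Pparg was at 9.16, 10.2, 9.84, 5.62 and 6.95 CPM in control and 10.5, 12.2, 12.2, 11.5 and 13.9 CPM in Pio mice. The groups did not overlap (exact permutation p = 0.00794), but across all genes Pparg was not called (0.53 ± 0.17, adjusted p = 0.0549). Without control mouse 832 it had 0.61 (adjusted p = 0.0377). Ppara, at 46.7 to 105 CPM in control and 86.8 to 160 CPM in Pio mice, was called higher by 0.73 ± 0.22 (adjusted p = 0.0472), and the coactivator gene Ppargc1a by 0.67 (adjusted p = 0.0396). These calls were lost when any 1 of 16 and of 10 mice was left out, at 0.57 to 0.80 and 0.48 to 0.71. Ppard had -0.55 (adjusted p = 0.289), Rxra 0.04 (adjusted p = 0.92), Rxrb -0.39 (adjusted p = 0.0734) and Rxrg 0.41 (adjusted p = 0.31). Cebpb, a partner of PPARγ in fat cell formation, fell by 0.95 on the log2 scale (SE 0.23, adjusted p = 0.0145).

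Several known PPAR targets were not called. Angptl4, which inhibits lipoprotein lipase, had -0.32 (adjusted p = 0.293), Pdk4, which restrains pyruvate dehydrogenase, had 0.70 (adjusted p = 0.347), and the gluconeogenic gene Pck1 had -0.58 (adjusted p = 0.181). The thioesterase Acot1 had 0.41 (adjusted p = 0.444). Aqp7, Cpt1b and Ucp1, as well as Adipoq and Lep, had too few reads to be tested.

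On HFD, in other mice, 104 of 12447 genes were called higher with Pio (0.836%) and 46 lower (0.37%). The genes called on control diet mostly kept their direction there. Of the 506 higher genes 402 (79.5%) were higher on HFD as well, 69 (13.6%) were called higher, and their median log2 fold change was 0.30 against 0.83 on control diet. Of the 428 lower genes 325 (75.9%) were lower and 10 (2.34%) called lower, with a median of -0.18 against -0.72. Since these genes were chosen by their values on control diet, a smaller size in other mice can follow from that choice alone and is given as a description. For single genes, the log2 fold change on HFD was 6.12 for Cidea, 4.68 for Cfd, 4.57 for Gprc5b, 3.02 for Cidec and 2.00 for Cd36, all called. It was 0.86 (adjusted p = 0.37) for Fabp4, 0.23 (adjusted p = 0.515) for Car3, 0.10 for Cpt1a and -1.63 (adjusted p = 0.0642) for Fgf21.

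By edgeR the Pio effect differed between the 2 diets for 1 of 12447 genes (0.00803%), and 1942 (15.6%) had an unadjusted p under 0.05. This count depended on the tool and on single mice: DESeq2 called 135, limma, the study's model, 840, and edgeR without Pio mouse 841 called 115. The gene that edgeR called was Cyp7a1. Its mean was 10.5 ± 4.41 CPM (SD, n = 5) in control and 51.7 ± 17.1 in Pio mice. It was 49.5 ± 18.1 in HFD and 29.1 ± 5.91 in HFD-Pio mice (n = 5 each), where the log2 fold change was -0.76 ± 0.28 (adjusted p = 0.149). The HFD mice without Pio thus lay at about the level of the Pio mice on control diet. The difference was -3.08 ± 0.40 (adjusted p = 0.00223). For Fabp4 the difference of -2.42 was not called (adjusted p = 0.201).

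In KO mice on control diet the result depended on 1 library, the labelled KO Pio mouse 13. Mitochondrial messages made up 0.85% of its counts, against 5.3% to 7.9% in the other KO Pio mice. It had 18481 detected genes, against 19373 to 20011 in those mice. With all mice 1166 of 12942 genes were called between KO Pio and KO control (9.01%), and without that mouse 66 of 12895 (0.512%). Without it, the 506 genes that rose in WT had a median of -0.01 in KO, 247 (48.8%) were higher and 0 were called higher by edgeR, with 46 above and 36 below 0 at an unadjusted p under 0.05. With all 40 mice 25 of the 506 were called in the WT direction and 14 in the other. The 428 lower genes had a median of 0.06 without mouse 13, 170 (39.7%) were lower, 2 were called lower and 6 higher. KO and WT mice differed in the Pio effect in 1018 genes with all mice (7.87%) and in 745 without mouse 13 (5.78%). Of the 506 higher genes 254 had a called difference below 0 without mouse 13 and 0 one above it, and of the 428 lower genes 195 had one above 0 and 0 below. The same WT mice enter both sides of this count, which is therefore not independent of how the genes were chosen. WT and KO libraries stand in separate tables, so a batch that follows genotype cannot be told apart from it.

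Without KO Pio mouse 13, the difference of KO minus WT was -8.63 for Cfd (adjusted p = 0.000489), -2.56 for Cidec (adjusted p = 0.00911), -2.69 for Plin4 (adjusted p = 0.000185) and -1.70 for Cd36 (adjusted p = 0.0408). Cfd, Cidec, Plin4 and Cd36 thus had a smaller Pio effect in KO than in WT mice. For Cidea it was -7.65 and not called (adjusted p = 0.259), with a KO estimate of 0.26 and a standard error of 2.43. For Fabp4 it was -2.36 (adjusted p = 0.0819), and called only with all 40 mice (-2.65, adjusted p = 0.0397). Cyp7a1 had -3.60 (adjusted p = 0.000489), and Cyp4a10 had -2.82 (adjusted p = 0.0101) with a KO estimate of -1.34.

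Several lower genes differed as well: the difference was 2.61 for Fgf21 (adjusted p = 0.0417), 2.76 for Tnfrsf12a (adjusted p = 0.00467) and 4.23 for Gstm3 (adjusted p = 0.000393), which in KO was called higher by 2.20 (adjusted p = 0.0308). Of the clock genes, Ciart had -2.42 (adjusted p = 0.0279), Per3 -1.96 (adjusted p = 0.0417), Arntl 2.30 (adjusted p = 0.00257), Cry1 1.49 (adjusted p = 0.0156) and Npas2 3.12 (adjusted p = 0.00724). For cholesterol synthesis the median was 0.70 in KO mice without mouse 13, against 0.68 in WT mice. Hmgcs1 had 1.00 ± 0.34 in KO (adjusted p = 0.198) and a difference of -0.24. The unfolded protein response list was low in both, with a median of -0.49 in KO mice without mouse 13 and -0.38 in WT mice. In KO 4 of its genes were called lower, and the difference was called above 0 for 1 gene and below 0 for 1. Immediate early genes had a median of 0.72 in KO, against -0.67 in WT mice and -0.38 in WT mice without control mouse 832. With that mouse in the fit, 5 of their differences were called above 0 and 0 below.

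**Figure D5:**
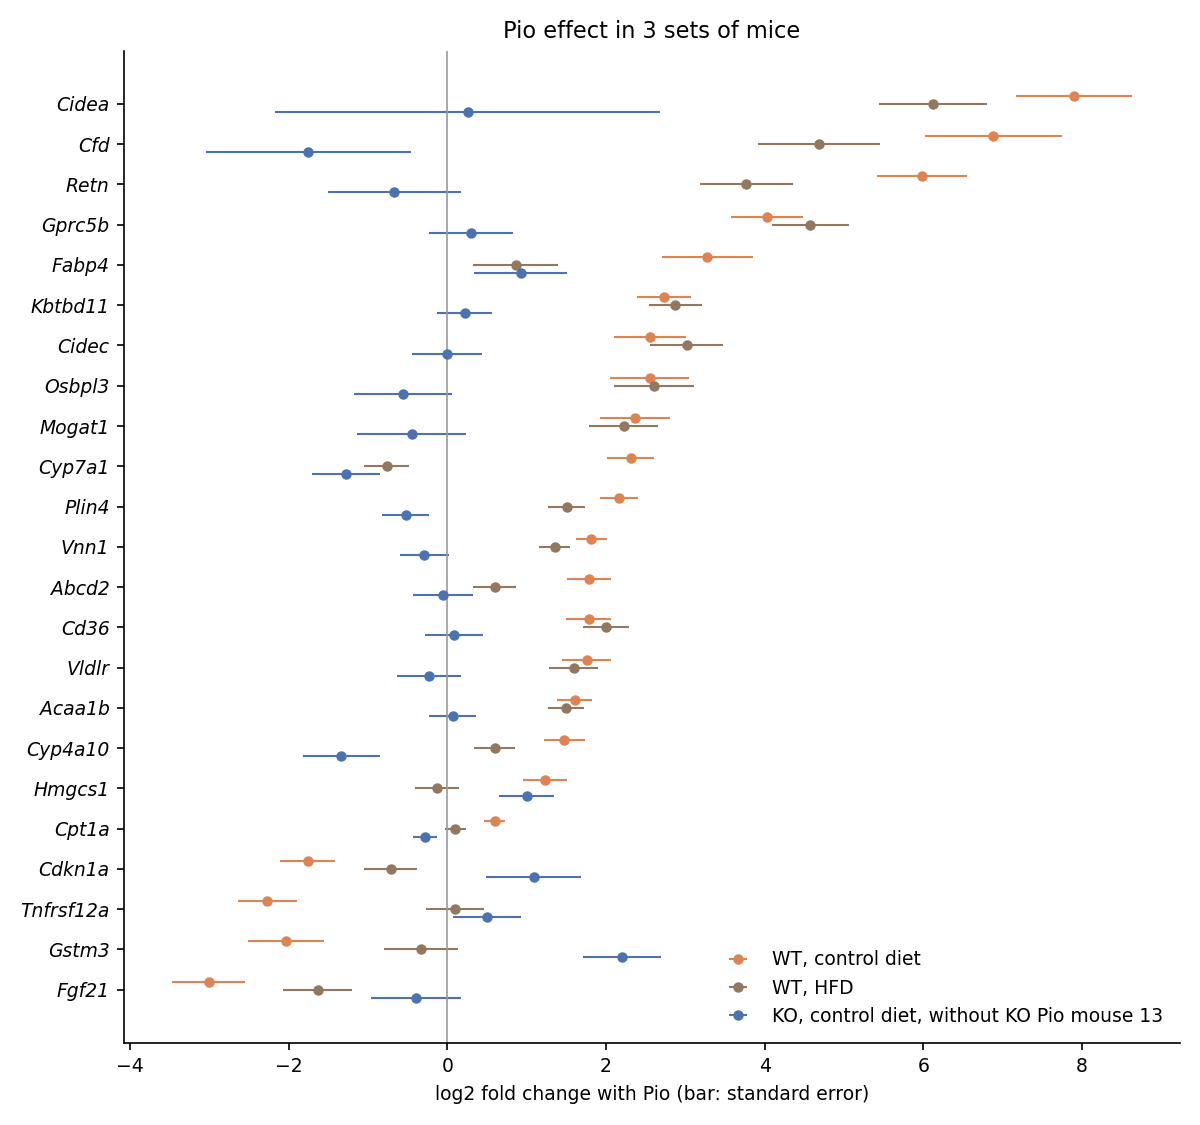
Log2 fold change of Pio against no Pio (x axis, bars are the standard error of the fit) for selected genes (y axis) in WT mice on control diet, WT mice on HFD and KO mice on control diet without KO Pio mouse 13. For Cyp7a1 the value is 2.31 on control diet, -0.76 on HFD and -1.28 in KO mice.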

How the data were processed

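Poly-A RNA of whole liver was sequenced. Per the labels and the study's methods, the authors aligned reads to GRCm38 (Ensembl release 76) with STAR 2.0.4b and counted reads assigned uniquely and unambiguously to 1 gene with Subread featureCounts 1.4.5; the deposited values are these whole-number counts, 1 column per mouse, not normalized. Such counting drops reads of near-identical genes, and gene length leaves fold changes as they are. Repeated lines of a gene (574 in the WT table, 0 of which differed in counts) and 355 rRNA genes were dropped.

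The main analysis was edgeR 4.0.16 in R 4.3.3: trimmed-mean (TMM) factors and the robust quasi-likelihood fit on all 20 WT mice and their 4 group means, so that the groups share 1 estimate of the spread, and Benjamini-Hochberg adjustment over 12447 genes, those that reached 1 CPM in 5 or more of these mice. Of these, 491 did so only with mice given Pio counted, and 45 of the 491 were called higher and 4 lower. The common dispersion was 0.0614. KO mice were brought in through a fit of all 40 mice (12942 genes, common dispersion 0.085), with and without KO Pio mouse 13. The study's own model was limma with voom and quality weights, run here as an alternative (limma 3.58.1), as was DESeq2 1.42.0. Single values were compared by the exact permutation test (two-sided, 252 splits of 5 against 5 mice). Intervals of count ratios are exact (95%), and like the depths they cover counting error only. That the mice of a group are separate animals comes from their labels. Of these tests, only the edgeR test of Pio against control in the 20 WT mice was run on simulated counts with known changes. Tables and plots were made in Python 3.11.15 with matplotlib 3.10.9, pandas 2.3.3, scipy 1.17.1 and numpy 2.4.6.

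The gene lists, the named genes, the WT fit and the leaving out of KO Pio mouse 13 were chosen with earlier results of these data known. Named were PPAR and RXR genes, the 7 genes of the study's text, 20 known PPAR targets, the 10 largest changes in each direction among called genes averaging 5 CPM or more over the 10 mice, the 5 called genes with the highest mean CPM in each direction, and up to 4 called genes of each list by p, plus any member needed to account for a list. Alternatives were other normalizations, tools, filters and sample sets, each mouse left out in turn, and, chosen after seeing the data, mitochondrially encoded genes left out. Promoter windows came from RefSeq (GRCm38.p6), and 9504 of 12439 uniquely named tested genes had one. Gene positions and overlaps came from GENCODE for GRCm38. The numbers of mice are not shared between groups. Binding data of the study were not analysed here. A few genes among those called are not reported here.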

Additional observations from a re-analysis of the deposited data

Results flagged for a closer look

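Single mice stood apart from the other 4 of their group, by a gap of more than 0.71 of the group's range (Dixon's test), in 19 of 144 groups of 5 examined. That cut-off is set for about 1 in 20 in a single group of normally distributed values. Since the groups examined come from the same 10 mice and hold CPM values, the count of 19 is not set against that rate. In control mouse 832, the highest control, these were Cidec at 43.8 CPM, Lpl at 62.9, Gprc5b at 6.44, Osbpl3 at 12.0, Kbtbd11 at 3.79, Atf3 at 63.3, Ddit3 at 46.8, Tnfrsf12a at 50, Gstm3 at 610.5 and the summed markers of stellate cells and matrix at 827 CPM. The other high control values were Cyp7a1 at 18.1 CPM and summed skeletal muscle markers at 1.10 CPM in mouse 833, and Mup9 at 25.6 and Dbp at 19.8 CPM in mouse 835. Endothelial markers were low in control mouse 831, at 226 CPM. Among Pio mice the high values were Fgf21 at 4.17 CPM in mouse 841, Cyp4a10 at 530.5 and Ddit3 at 9.56 CPM in mouse 842, and Cd36 at 192.1 CPM in mouse 845.

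The Pio effect differed between HFD and control diet for Cyp7a1, by -3.08 on the log2 scale (edgeR's quasi-likelihood test of the difference). Between KO and WT mice on control diet, with all 40 mice in the fit, the difference (KO minus WT, log2) was called for 1018 genes. Of 58 genes examined for this section, those called are the genes that follow, so other genes named above can be called and absent here. Among genes higher in WT it was -7.11 for Cfd, -6.87 for Retn, -4.66 for Mup9, -3.78 for Gprc5b, -3.77 for Cyp7a1, -3.26 for Osbpl3, -3.06 for Mogat1, -3.03 for Cyp4a10, -2.86 for Plin4, -2.65 for Fabp4, -2.62 for Ciart, -2.58 for Cidec, -2.39 for Vnn1, -2.38 for Cyp2c39, -2.01 for Abcd2, -1.97 for mt-Nd5, -1.96 for Cd36, -1.82 for Kbtbd11, -1.77 for Car3, -1.50 for Acsm3, -1.40 for Gpd1, -1.25 for Acadm, -1.18 for Slc25a20, -1.16 for Acad10, -1.10 for Pex11a, -1.01 for Cpt1a, -0.91 for Cox7a2l and -0.86 for Cpox. Pparg, which Cre deletes in KO hepatocytes, had -1.21. Among genes lower in WT it was 3.97 for Gstm3, 3.72 for Atf3, 3.23 for Npas2, 2.99 for Tnfrsf12a, 2.77 for Cdkn1a, 2.66 for Fgf21, 2.07 for Arntl and 1.84 for Cry1. Without KO Pio mouse 13 each difference between genotypes listed here was called again except that of Fabp4 (adjusted p = 0.0819). The effect in WT mice enters each difference, and without control mouse 832 Atf3 had -1.14 in WT and was not called. Leaving out that mouse, the difference between genotypes was called for 721 genes, and values of single genes in that fit are not given here.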

How the results depend on the processing

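Of the 133 named genes tested, 116 were called, and all 116 kept their direction under the 31 alternatives run, 34 of them with their call under every one. Of the other 17, 10 were called under some alternative, and 2 turned direction: Acot1 with limma (-0.028), and Rxra with limma (-0.058) and without control mouse 832, control mouse 833 or Pio mouse 841. Over all mice left out in turn Rxra ranged from -0.034 (without control mouse 832) to 0.096 (without control mouse 831). The 934 genes called for Pio against control became 2760 with limma, 607 without a filter on low counts, 506 in the fit of all 40 mice, 2007 in that fit without KO Pio mouse 13 and 362 with only the 10 mice of the comparison. With 1 mouse left out they ranged from 474 (without Pio mouse 845) to 1325 (without HFD mouse 829), with 617 without control mouse 831, 570 without Pio mouse 842 and 584 without Pio mouse 843. DESeq2 called 1380 and the fit without mitochondrially encoded genes 926. The single gene called for the difference between the diets became 135 with DESeq2, 840 with limma, 2 without the filter, 2 with a minimum of 5 CPM, 10 with all 40 mice and 677 without KO Pio mouse 13, and ranged from 1 to 115 (without Pio mouse 841) with 1 mouse left out. The 1018 genes called for the difference between genotypes became 1998 with limma and 565 without the filter, and ranged from 537 (without WT Pio mouse 845) to 1976 (without KO Pio mouse 11). The causes were not tested. At these depths a gene under 1 CPM in most mice was not tested, so its change was not detectable rather than absent. No paired analysis was possible because the groups share no mouse numbers.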

Other observations

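Several genes with the smallest p values in the comparison of Pio with control belonged to no list, and are named here after their values were seen. Clstn3, a calsyntenin, was at 10.7 to 22 CPM in control and 81.9 to 102 CPM in Pio mice (2.47 ± 0.26, adjusted p = 7.19e-06). Gal3st1, which sulfates galactosylceramide, was at 2.17 to 3.03 CPM in control and 8.14 to 12.6 CPM in Pio mice (2.01 ± 0.18, adjusted p = 1.55e-06), with 2.41 on HFD. In both genes every Pio mouse was above every control mouse, and control mouse 832 did not stand apart. The protease inhibitor Serpinb1a rose by 3.27 ± 0.36 (adjusted p = 1.05e-05), and Tlr5, the receptor of bacterial flagellin, by 1.62 ± 0.17 (adjusted p = 5.71e-06).

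Bhmt, which returns homocysteine to methionine with betaine, was at 69.9, 115, 120, 116 and 143 CPM in control and 549, 456, 407, 361 and 276 CPM in Pio mice (1.86 ± 0.20, adjusted p = 1.05e-05). On HFD Bhmt had 0.23 (adjusted p = 0.526). Cyp2j6, an epoxygenase, was at 23.5 to 34.4 CPM in control and 61.6 to 83 CPM in Pio mice (1.36 ± 0.13, adjusted p = 2.03e-06) and had 0.43 on HFD (adjusted p = 0.0899). For neither was the difference between the diets called. Isyna1, which makes inositol phosphate from glucose phosphate, was among the few falls of this rank, at 11.5 to 20.1 CPM in control and 4.31 to 7.25 CPM in Pio mice (-1.36 ± 0.17, adjusted p = 3.54e-05).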
